A study of Mus musculus with 5 samples.

Results

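This report describes the Ccr7-positive, MHC class II-high cells of adult mouse skin, cells that carry the label of migratory dendritic cells. A cell barcode was counted among them when it had at least 2 unique molecular identifiers (UMIs) of Ccr7, at least 50 UMIs of H2-Aa, H2-Ab1 and Cd74 together per 10000, no UMI of Cd3d, Cd3e or Cd3g, and fewer than 50 UMIs of Krt5 and Krt14 together per 10000. Before this, barcodes with fewer than 200 genes or more than 10% of UMIs from mitochondrial genes had been dropped. The cells were thus chosen by their measured UMIs of Ccr7, of MHC class II and of T cell and keratinocyte genes, and none of these is tested below. This left 876 cells of 26845 kept barcodes. They were set against the 1698 Ccr7-negative cells that had no Ccr7 UMI and met every other part of the rule.

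The data came from skin of C57BL/6 mice, dissociated, sorted for live cells and captured in droplets. The labels name 10x Genomics 3′ v1 chemistry. The barcodes have 16 bases, a length that later chemistries use, so the version is not certain. There were 2 libraries of un-wounded skin, for which no treatment or age was given, and 3 libraries of wounded skin. Wounded mice had received a 6-mm punch wound at 7 weeks of age, and a 10-mm punch around it was taken 4 days later, so wounded libraries held wound bed and edge together. The sources used here do not say whether the libraries came from separate animals, so p-values measure the spread between these libraries, which may be technical.

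Dendritic cells sample antigen in the skin and, once they mature, raise the chemokine receptor CCR7, which draws them along the CCL19 and CCL21 gradient into lymphatic vessels and on to the lymph node. Maturing cells are known to take up less antigen, to rearrange their actin skeleton with the bundling protein fascin (Fscn1), to put co-stimulatory ligands on their surface and to secrete chemokines such as CCL22 and CCL17. Much of this programme is driven by NF-kappaB factors, above all RelB.

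Kept barcodes held a median of 6096 to 8003.5 UMIs per library. The Ccr7-positive cells had a median of 8539 UMIs, with single cells between 2214 and 33867. Their medians were 7573, 7805 and 9665 UMIs in wounded libraries 1, 2 and 3, above the 5424, 6352 and 6574.5 UMIs of the Ccr7-negative cells. Summed over cells, they gave 95685, 1022124, 3645463 and 2831824 UMIs in un-wounded library 2 and wounded libraries 1, 2 and 3. No Ccr7-positive barcode was shared between libraries, while 26 to 63 barcodes, counted before the filters, were shared by each pair of libraries. High doublet scores marked 40 of the Ccr7-positive cells (4.57%) and 113 of the Ccr7-negative cells (6.65%).

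Nearly all of the Ccr7-positive cells came from wounded skin, 863 against 13. By library there were 1 and 12 in un-wounded skin and 124, 458 and 281 in wounded skin. They made up 0.0190% and 0.223% of kept barcodes in un-wounded skin and 1.65%, 10.0% and 6.81% in wounded skin. The exact Clopper-Pearson 95% intervals, which cover counting error only, were 0.115 to 0.390% in un-wounded library 2 and 1.37 to 1.96, 9.17 to 10.9 and 6.06 to 7.63% in wounded skin. Every wounded library lay above both un-wounded ones, with means of 6.16% ± 4.23 (SD, n = 3) and 0.121% ± 0.144 (SD, n = 2), a difference of 6.04 percentage points. The exact two-sided permutation test gave p = 0.2, and the smallest value it can give with these libraries is 0.1. Shares of a sorted suspension depend on every other cell type in it.

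Within MHC class II-high cells the order of the libraries was the same. Of the 2751 MHC class II-high barcodes, the Ccr7-positive cells made up 1.35% and 8.33% in un-wounded skin and 22.2%, 43.9% and 30.2% in wounded skin. The means were 4.84% ± 4.94 (SD, n = 2) and 32.1% ± 11 (SD, n = 3), and the groups did not overlap. The difference was 27.3 percentage points, with p = 0.1 in the exact two-sided permutation test, the smallest value possible.

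**Figure D1:**
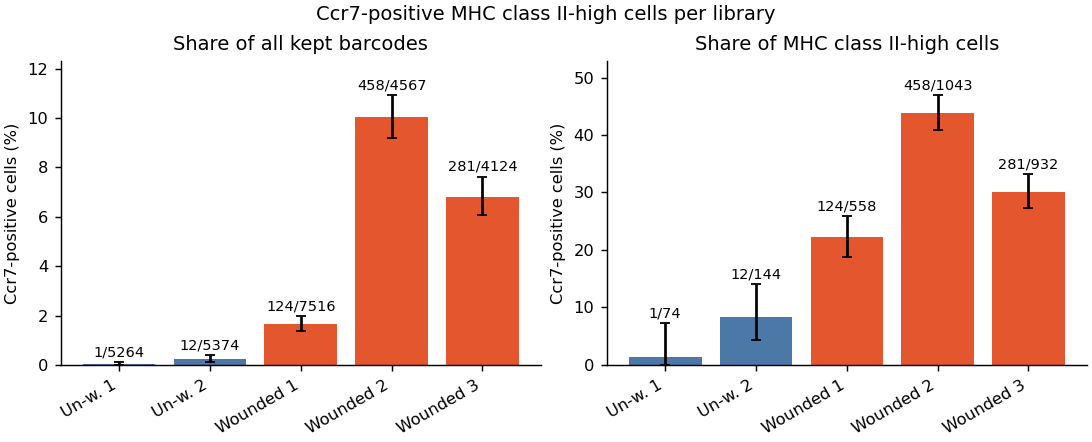
Ccr7-positive cells as a percentage of all kept barcodes (left) and of MHC class II-high cells (right) in each library, blue for un-wounded and red for wounded skin; bars are percentages, error bars exact 95% binomial intervals, and the numbers above them are cells counted over cells in the denominator. The 3 wounded libraries lie above both un-wounded ones in each panel.

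Ccr7 chose these cells, so its level is a description. Ccr7 (ENSMUSG00000037944, chr11:99144196-99155077 of build GRCm38, minus strand) had a median of 11 UMIs per cell, with quartiles of 5 and 27 and a highest count of 144. As CPM, the UMIs of a gene scaled to the summed UMIs of its cell class in a library, it stood at 1265 in un-wounded library 2 and at 2377, 2251 and 2102 in wounded libraries 1, 2 and 3. At the edge of the rule, 80 cells had exactly 2 Ccr7 UMIs and 61 had 3, and 177 cells with 1 UMI lay just outside; 642 cells had more than 5. A further 250 barcodes had at least 2 Ccr7 UMIs but failed another part of the rule, 147 of them by a Cd3 UMI and 141 by low MHC class II. Keratinocyte barcodes, which should lack Ccr7, had a Ccr7 UMI in 0.0285% to 8.72% of cells across the 5 libraries, at median depths between 6258 and 11197 UMIs.

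The label was checked with the other markers given for it, Fscn1 and Ccl22, which the rule did not use. Fscn1 was detected in 235 of the 876 cells (26.8%), Ccl22 in 409 (46.7%) and both in 168, while 400 cells (45.7%) had a UMI of neither. In un-wounded library 2, 10 of the 12 cells had neither. Thinned to 3000 UMIs per cell, Fscn1 was detected in 16.7, 22.95, 22.9 and 21.4% of Ccr7-positive cells in un-wounded library 2 and wounded libraries 1, 2 and 3. The corresponding shares were 1.06, 1.82, 1.87 and 1.68% in Ccr7-negative cells and 0.939, 2.19, 5.19 and 2.69% in keratinocyte barcodes. The thinning left out 2 shallower Ccr7-positive cells in wounded library 1 and 25 in wounded library 2. Thinned Ccl22 shares were 16.7, 31.1, 33.5 and 37.4% in Ccr7-positive and 2.13, 2.08, 8.43 and 2.35% in Ccr7-negative cells. Both markers were detected more often in the Ccr7-positive cells, but a large share of these had no UMI of either, and the cells are called by their rule here.

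Flt3, the receptor for a growth factor of dendritic cells, and Zbtb46, a transcription factor of classical dendritic cells, were detected more often in Ccr7-positive than in Ccr7-negative cells of wounded skin. Thinned to 3000 UMIs, Flt3 had a UMI in 22.1, 27.0 and 13.9% of Ccr7-positive cells of wounded libraries 1, 2 and 3, and in 9.11, 13.3 and 4.19% of Ccr7-negative cells. The unthinned shares were 45.2, 48.5 and 33.5% against 13.9, 26.0 and 10.0%. For Zbtb46 the thinned shares were 2.46, 11.1 and 8.19% against 2.08, 4.68 and 0.503%, so that wounded library 1 showed little difference. In un-wounded library 2, 1 of 12 thinned Ccr7-positive cells had a Flt3 UMI (8.33%, against 7.45% of Ccr7-negative cells) and none a Zbtb46 UMI (against 9.57%).

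Clustered among themselves, the 876 cells fell into 6 sub-groups of 252, 245, 150, 111, 102 and 16 cells. The sub-groups were made from the same counts, so their leading genes are a description with no test. Sub-group 1 (28.8% of cells) held most of the Fscn1 RNA, with 1686 CPM against 1.78 to 68.4 CPM in the others, and 75.8% of its cells had an Fscn1 UMI. It also led in Ccr7 (3937 CPM), Ccl22 (2259 against 243 CPM in all other Ccr7-positive cells), Cacnb3 (286 against 3.68 CPM), Socs2 (456 against 21.9 CPM), Cd200 (397 against 21.2 CPM), Serpinb6b (611 against 20.7 CPM) and Fabp5 (7978 against 547 CPM). Cacnb3 encodes a calcium channel subunit, Socs2 a cytokine signalling inhibitor, Cd200 an inhibitory surface ligand and Fabp5 a fatty acid carrier. Much of the RNA of these genes thus lay in 28.8% of the cells that passed the Ccr7 rule. The mast cell proteases Cma1 (487 against 1.75 CPM) and Mcpt4 (283 against 1.75 CPM) were leading genes of sub-group 1 too. For them, 2 cells held 99.6 and 100% of the UMIs.

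The other sub-groups kept Ccr7 at 1012 to 2250 CPM with other leading genes. Sub-group 2 (28.0%) was led by Il1r2, the decoy receptor for interleukin-1 (2955 against 842 CPM), with Pgf, Ifitm1 and the hypoxia-responsive Hilpda (2602 against 1018 CPM). Sub-group 3 (17.1%) had more of the chemokine Ccl4 (8508 against 2077 CPM), of Cd7 (518 against 83.6 CPM) and of the immediate early genes Atf3 (1326 against 288 CPM) and Jun (1146 against 341 CPM). Sub-group 4 (12.7%) was led by Cd207, the Langerhans cell lectin langerin (727 against 23.8 CPM), in which 2 cells held 46.1% of the UMIs, and had more Mgl2 (603 against 114 CPM). The next leading genes of sub-group 4 were epidermal, Cst6, Lgals7, Krt10 and Krt15, and 2 cells held 98.0, 40.4, 84.5 and 55.9% of their UMIs. Its keratinocyte markers summed to 1180 CPM, against 95.4 to 327 CPM in the other sub-groups. Sub-group 5 (11.6%) was led by the complement gene C1qb (845 against 16.5 CPM), Tnf (970 against 63.2 CPM) and lysozyme Lyz2 (3712 against 375 CPM). Sub-group 6 (1.83%) was led by the matrix genes Sparc (8052 against 196 CPM) and Col1a1 (5055 against 144 CPM), fibroblast RNA in cells that met the rule.

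The mix of sub-groups differed between libraries. Sub-group 1 made up 16.7, 29.8, 32.3 and 23.1% of Ccr7-positive cells in un-wounded library 2 and wounded libraries 1, 2 and 3. Sub-group 4 made up 66.7% in un-wounded library 2 (8 of its 12 cells) and 30.6, 6.55 and 12.1% in wounded skin, and it also held the single cell of un-wounded library 1. Sub-groups 2 and 5 had no cell in un-wounded library 2, where 12 cells set the precision, and held 16.1, 26.4 and 37.0% and 7.26, 12.2 and 13.2% in wounded skin.

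**Figure D2:**
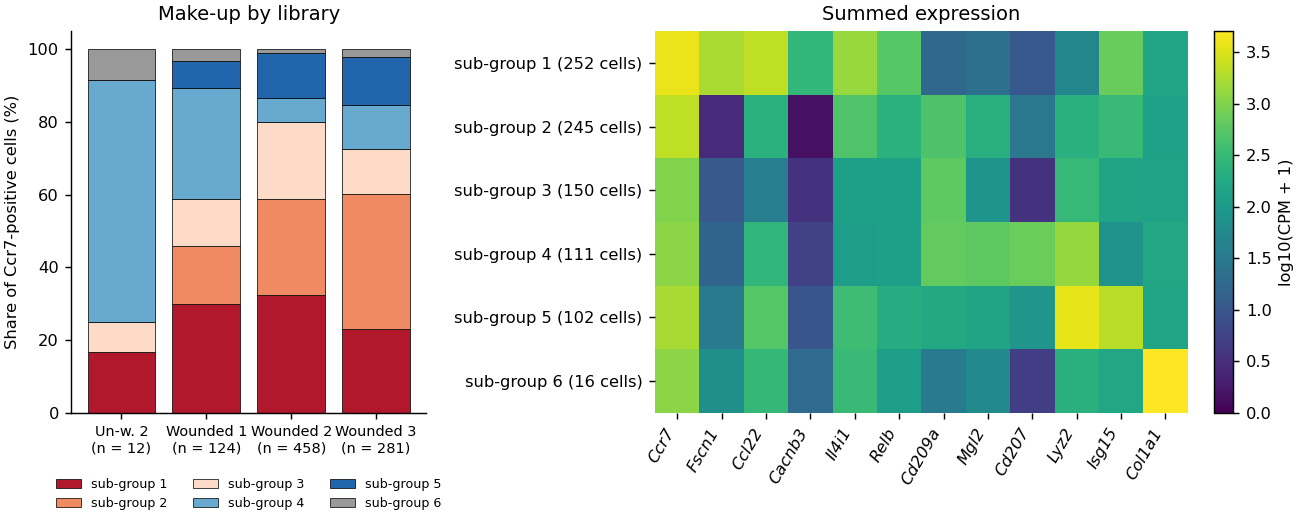
Left, the share of Ccr7-positive cells (%) in each of 6 sub-groups, stacked by library; right, log10(CPM + 1) of 12 genes in the summed cells of each sub-group, on a colour scale from dark (0) to yellow. Sub-group 1 combines the highest Ccr7, Fscn1, Ccl22 and Cacnb3, while Cd207 peaks in sub-group 4, Lyz2 in sub-group 5 and Col1a1 in sub-group 6.

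Markers of dendritic cell types were compared after thinning to 3000 UMIs. At least 1 UMI of a marker of type 2 dendritic cells (the Cd209a and Mgl2 lineage) was found in 75, 56.6, 49.9 and 54.4% of Ccr7-positive cells of un-wounded library 2 and wounded libraries 1, 2 and 3, and in 80.9, 40.1, 46.1 and 29.2% of Ccr7-negative cells. Langerhans markers Cd207 or Epcam were found in 8.33, 19.7, 2.54 and 10.3% against 13.8, 36.2, 5.15 and 6.54%, and were highest in wounded library 1 in both classes. Xcr1 or Clec9a, which mark cross-presenting type 1 dendritic cells, were found in 0, 0.820, 1.15 and 1.07% against 7.45, 2.34, 4.68 and 1.85%. The 0 in un-wounded library 2 rests on 12 cells. Over 8 listed type 1 markers, Xcr1 and Clec9a among them, the unthinned sums differed less in wounded skin. They were 178, 525, 493 and 479 CPM in Ccr7-positive and 1021, 693, 814 and 499 CPM in Ccr7-negative cells. In sub-group 1 this sum was 995 CPM, against 235 to 455 CPM in the other sub-groups. Xcr1 itself was lowest in sub-group 1, at 1.05 CPM against 2.23 to 7.31 CPM in the others, so other listed genes made up the sum there. Among the Ccr7-positive cells, 25, 34.4, 46.4 and 34.2% had no UMI of Cd209a, Mgl2, Clec10a, Cd207, Epcam, Xcr1, Clec9a or a C1q gene at this depth. The type 2 markers were uneven over the sub-groups. In sub-group 1, 5.56% of cells had a Cd209a UMI and 8.73% a Mgl2 UMI, unthinned. The 7 listed type 2 markers summed to 233 CPM there, against 311 to 2325 CPM in the other sub-groups.

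Expression in the Ccr7-positive cells was tested against the Ccr7-negative cells of the same libraries with UMIs summed per class and library (edgeR's quasi-likelihood F-test, library as a block, Benjamini-Hochberg adjustment over all genes tested). Un-wounded library 1, with 1 Ccr7-positive cell, could not enter, so 4 libraries were used. Of 8814 genes tested, 15.1% passed an adjusted p of 0.05; 766 (8.69%) were higher and 569 (6.46%) lower in the Ccr7-positive cells. Without TMM scaling the split was 571 higher and 1187 lower, and the median log2 fold change of all genes moved from −0.03 to −0.23. Without sub-group 1 the test called 474 genes higher, 429 of them among the 766, and 415 lower. Without wounded library 2 it called 702 genes in all and without wounded library 3 666, against 1335 with all libraries. Sub-group 1 was picked for leaving out because its Ccr7, Fscn1 and Ccl22 had the highest sum (7882 CPM). Fits without it describe that sub-group and are no independent test. In what follows, values by library run in the order un-wounded 2, wounded 1, wounded 2, wounded 3, first for Ccr7-positive and then for Ccr7-negative cells.

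RNA of other cell types differed between the classes as well. The summed level of 10 macrophage and monocyte markers was 2874, 1878, 876 and 2723 CPM in the Ccr7-positive cells and 10304, 11748, 5780 and 17555 CPM in the Ccr7-negative cells, with no overlap. C1qb, C1qc and Fcgr1 were among the markers at 0 in the Ccr7-positive cells of un-wounded library 2, and no gene of the list was at 0 in those of wounded skin. Fibroblast markers summed to 1474, 1911, 1432 and 1232 CPM against 6088, 2902, 3565 and 2468 CPM, and keratinocyte markers to 815, 1098, 127 and 161 CPM against 2411, 1160, 141 and 137 CPM. Their part in the differences below was not tested.

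Among the largest falls were many genes of macrophages and monocytes. The platelet factor 4 gene Pf4 fell by 4.37 on the log2 scale, the monocyte attractant Ccl8 by 4.08, and the coagulation gene F13a1 by 3.91. Cbr2, Ccl12, Ms4a7, C1qa, C1qc, Lyz1 and the prostaglandin synthase Ptgs1 were among the 12 largest falls too. For C1qb the levels were 0, 79.3, 24.7 and 218 CPM against 548, 875, 478 and 1713 CPM, lower in all 4 libraries with no overlap (log2 fold change −3.44 ± 0.27 SE, adjusted p = 5.97e-06). The comparison class thus held RNA of macrophages and monocytes beside that of dendritic cells, and 2 narrower comparison classes follow further on.

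Of 20 listed genes of the cytoskeleton and motility, all tested, 11 rose, 9 were not called and none fell (median log2 fold change 0.54). Fscn1 (ENSMUSG00000029581, chr5:142960343-142973185, plus strand) had 167, 642, 383 and 427 CPM in Ccr7-positive and 2.47, 19.9, 20.4 and 18.1 CPM in Ccr7-negative cells. It was higher in all 4 libraries with no overlap (log2 fold change 4.85 ± 0.19 SE, adjusted p = 9.49e-08). Without sub-group 1 the log2 fold change of Fscn1 was −0.29. That sub-group was picked partly for its high Fscn1, so a lower value without it was fixed in advance. Cacnb3 had 41.8, 92.9, 82.8 and 57.6 CPM against 3.71, 3.06, 3.96 and 3.58 CPM (4.52 ± 0.23 SE, adjusted p = 6.54e-07). The actin genes changed less: Actb rose by 0.53 ± 0.10 SE (adjusted p = 0.00258) and Actg1 by 0.56 ± 0.09 SE (adjusted p = 9.91e-04), while the intermediate filament gene Vim was not called (−0.00, adjusted p = 0.991). Tmem123, which encodes a surface mucin named porimin, had 502, 562, 611 and 550 CPM against 82.9, 115, 111 and 101 CPM, with no overlap between the classes. The leukocyte actin-binding gene Lsp1 rose by 0.83 ± 0.16 SE (adjusted p = 0.00445). Without sub-group 1, 7 genes of the list rose and 1 fell among 19 tested.

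Of 16 chemotactic and adhesion receptors tested, 4 rose and 4 fell (median −0.05). Gpr183, an oxysterol receptor that positions dendritic cells in lymphoid tissue, had 334, 265, 458 and 325 CPM against 64.3, 98.7, 130 and 73.7 CPM, with no overlap (2.06 ± 0.16 SE, adjusted p = 5.73e-06). The integrin ligand Icam1 rose by 1.19 ± 0.21 SE (adjusted p = 0.00247). Ccr2, through which monocytes and their descendants enter inflamed tissue, went the other way. Its levels were 62.7, 70.4, 69.7 and 53.3 CPM against 155, 152, 182 and 167 CPM (−1.19 ± 0.15 SE, adjusted p = 2.14e-04). Ccrl2, an atypical receptor for chemerin, fell by 0.96 on the log2 scale (adjusted p = 0.00827). Cxcr4, the CXCL12 receptor, and the hyaluronan receptor Cd44 were not called (0.19, adjusted p = 0.523, and −0.30, adjusted p = 0.161).

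Chemokines and cytokines changed in both directions, with 7 of 18 tested higher and 3 lower (median 0.26). Ccl22 (ENSMUSG00000031779, chr8:94745590-94751699, plus strand), whose product attracts CCR4-bearing T cells, had 836, 926, 737 and 692 CPM against 12.4, 16.1, 84.1 and 15.4 CPM (5.07 ± 0.39 SE, adjusted p = 5.68e-06). In un-wounded library 2, 75 of its 80 UMIs sat in 1 cell; without sub-group 1 the log2 fold change was 3.14. Ccl17, which shares the receptor, had 178, 257, 146 and 247 CPM against 109, 41.3, 49.9 and 70.6 CPM (1.96 ± 0.24 SE, adjusted p = 1.92e-04). Il12b, the shared subunit of interleukins 12 and 23, had 31.4, 30.3, 111 and 7.77 CPM and was nearly absent from Ccr7-negative cells, at 0, 0, 0.914 and 0 CPM (adjusted p = 6.54e-07). Ccl5 had 282, 956, 1275 and 362 CPM against 80.4, 235, 279 and 189 CPM (1.91 ± 0.20 SE, adjusted p = 6.34e-05), a log2 fold change of 0.18 without sub-group 1.

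RNA of the inflammatory cytokine interleukin-1 beta was higher as well. Il1b had 7378, 6461, 7275 and 9763 CPM against 2359, 3132, 3752 and 6272 CPM, and the lowest Ccr7-positive library stood above the highest Ccr7-negative one (1.20 ± 0.11 SE, adjusted p = 1.58e-05). Its level was lower in sub-group 1 (3504 CPM) than in sub-groups 2 to 5 (7477 to 11462 CPM), the reverse of Ccl22. Il10, an anti-inflammatory cytokine, fell, with 0, 8.81, 22.5 and 36.0 CPM against 2.47, 27.2, 109 and 135 CPM (−1.79 ± 0.19 SE, adjusted p = 5.04e-05). The neutrophil attractant Cxcl2 had 502, 1735, 1651 and 2841 CPM against 580, 4540, 4685 and 9587 CPM (−1.15 ± 0.15 SE, adjusted p = 3.03e-04). Tnf fell by 1.13 on the log2 scale (adjusted p = 3.32e-04), although it led sub-group 5. Ccl3 and Ccl4 were not called (−0.30, adjusted p = 0.371, and −0.33, adjusted p = 0.170). The transmembrane chemokine Cxcl16 rose by 1.06, but its annotated span overlaps that of Zmynd15, which was also higher.

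Co-stimulatory and checkpoint ligands had the largest share of higher genes among the 13 lists: 15 of 16 tested rose, 1 fell, and the median log2 fold change was 1.95. Without sub-group 1, 11 rose and 1 fell. Cd86, a ligand of CD28, had 230, 452, 519 and 483 CPM against 126, 317, 193 and 205 CPM (1.21 ± 0.18 SE, adjusted p = 7.65e-04). Cd80, the second CD28 ligand, had 31.4, 79.2, 81.7 and 85.1 CPM against 7.42, 20.3, 23.1 and 19.9 CPM (2.17 ± 0.17 SE, adjusted p = 5.68e-06). Cd40, through which T helper cells license dendritic cells, had 83.6, 107, 141 and 149 CPM against 17.3, 35.2, 58.2 and 49.8 CPM (1.73 ± 0.15 SE, adjusted p = 1.41e-05). All 3 were higher in each library, and for Cd80 and Cd40 the classes did not overlap. The maturation marker Cd83 had 1359, 1749, 1508 and 1380 CPM against 547, 1108, 898 and 679 CPM (1.07 ± 0.11 SE, adjusted p = 4.85e-05).

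Ligands of inhibitory receptors rose with them. Cd274, which encodes PD-L1, had 251, 195, 315 and 195 CPM against 18.6, 45.1, 94.7 and 64.8 CPM (2.19 ± 0.21 SE, adjusted p = 2.94e-05). Pdcd1lg2, which encodes PD-L2, had 20.9, 59.7, 83.9 and 72.0 CPM against 6.19, 6.89, 18.3 and 13.0 CPM (2.69 ± 0.20 SE). Both stayed higher without sub-group 1, at 1.71 and 2.62. Cd200 rose by 2.86 with all cells and was at 0.53 without sub-group 1. Of the TNF family, Tnfsf4, the OX40 ligand, had 0, 27.4, 87.8 and 24.4 CPM against 0, 1.91, 6.09 and 2.46 CPM (3.90 ± 0.25 SE), and Tnfsf9, the 4-1BB ligand, rose by 0.94. Il2ra, the interleukin-2 receptor alpha chain, rose by 4.02 ± 0.24 SE (adjusted p = 1.09e-06). The adhesion ligand Cd48 was the 1 listed gene that fell (−0.68, adjusted p = 0.0214).

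**Figure D3:**
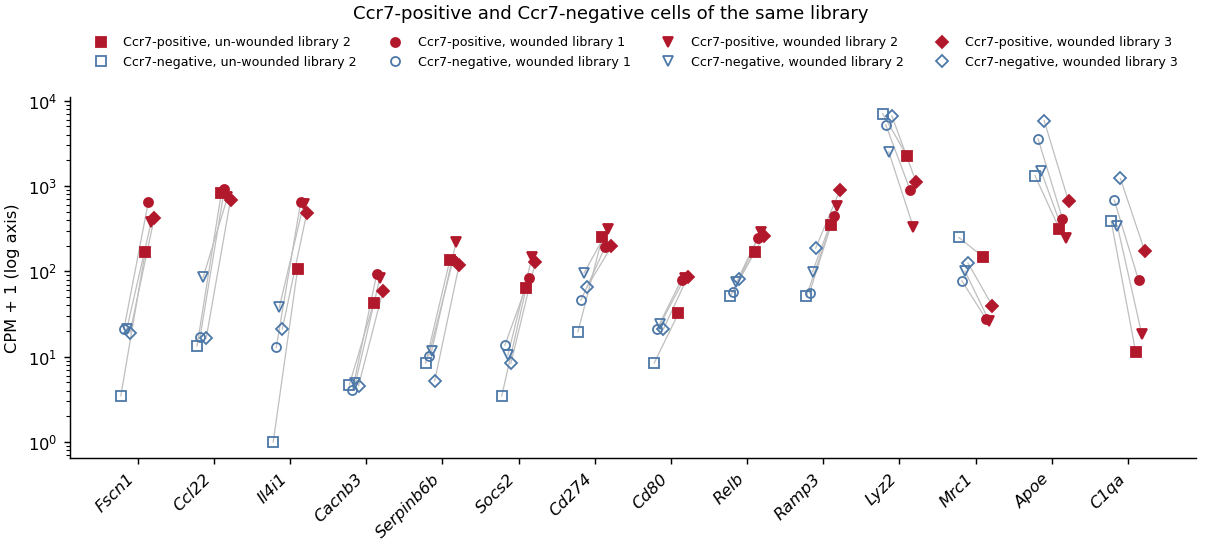
CPM + 1 on a log axis for 14 genes in Ccr7-positive (filled red) and Ccr7-negative cells (open blue) of 4 libraries, marked by shape, with grey lines joining the classes of 1 library. Fscn1, Ccl22, Il4i1, Cacnb3, Serpinb6b, Socs2, Cd274, Cd80 and Relb are higher and Lyz2, Mrc1 and C1qa lower in the Ccr7-positive cells of every library.

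Of 18 listed NF-kappaB components and targets, all tested, 13 rose and none fell (median 0.96). Relb, the factor of the non-canonical pathway needed for dendritic cell maturation, had 167, 244, 289 and 259 CPM against 50.7, 56.2, 73.4 and 81.1 CPM, without overlap (2.07 ± 0.15 SE, adjusted p = 4.81e-06). Its partner Nfkb2 had 62.7, 116, 132 and 106 CPM against 30.9, 39.8, 57.0 and 61.7 CPM (1.35 ± 0.17 SE, adjusted p = 2.21e-04). Rel, which encodes c-Rel, had 784, 432, 778 and 446 CPM against 250, 225, 294 and 175 CPM (1.47 ± 0.13 SE, adjusted p = 2.04e-05). Relb, Nfkb2 and Rel were each higher in all 4 libraries. The inhibitor gene Nfkbia rose less, by 0.57 ± 0.10 SE (adjusted p = 0.00238), from 1034, 1512, 1915 and 2522 CPM to 1547, 2085, 2751 and 2825 CPM. Traf1, a signalling adaptor, rose by 1.61 ± 0.12 SE (adjusted p = 5.94e-06), and the survival gene Bcl2a1b by 1.78 ± 0.20 SE (adjusted p = 9.90e-05), with the limit that its near-identical copies can share reads. Rela, the canonical subunit, was not called (0.43, adjusted p = 0.137). Without sub-group 1, 12 of the 18 rose and none fell.

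The promoters of 3 of these genes are shown because each holds the NF-kappaB consensus shortly before its transcription start. Sequences are the 250 bases before the start on the gene's own strand, from RefSeq on GRCm38.p6, with matches to the consensus on either strand in capitals. Overlapping matches run together.
Nfkb2, chr19:46304487-46304736, plus strand: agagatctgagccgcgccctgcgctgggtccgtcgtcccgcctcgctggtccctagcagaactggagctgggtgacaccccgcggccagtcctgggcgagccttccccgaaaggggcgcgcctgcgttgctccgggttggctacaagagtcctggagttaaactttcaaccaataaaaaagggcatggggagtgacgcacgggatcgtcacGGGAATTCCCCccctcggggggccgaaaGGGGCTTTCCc
Rel, chr11:23770970-23771219, minus strand: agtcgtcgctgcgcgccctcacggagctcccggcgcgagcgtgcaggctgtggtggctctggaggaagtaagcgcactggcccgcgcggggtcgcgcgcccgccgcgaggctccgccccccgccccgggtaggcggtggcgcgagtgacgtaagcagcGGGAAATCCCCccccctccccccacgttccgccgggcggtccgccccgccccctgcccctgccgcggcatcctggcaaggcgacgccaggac
Nfkbia, chr12:55492648-55492897, minus strand: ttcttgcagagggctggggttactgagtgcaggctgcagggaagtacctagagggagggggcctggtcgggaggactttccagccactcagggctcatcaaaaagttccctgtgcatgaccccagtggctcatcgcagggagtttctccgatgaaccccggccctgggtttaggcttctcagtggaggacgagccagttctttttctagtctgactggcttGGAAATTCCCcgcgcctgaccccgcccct
In Nfkb2 the matches began 39, 38 and 11 bases before the start, in Rel 92 and 91 bases, and in Nfkbia 29 bases. Across genes with a RefSeq promoter of 300 bases (250 before and 50 after the start), the consensus was present for 64 of 574 genes higher in the Ccr7-positive cells (11.15%), for 30 of 432 genes lower in them (6.944%) and for 452 of 6813 genes tested (6.634%). The share over all 27025 genes with a promoter was 5.136%. Among the NF-kappaB list's genes that rose, 5 of 11 with a promoter held it, and among the 12 largest rises 1 of 11 did. The list was chosen as NF-kappaB components and targets, and no share was computed for its genes that were not called. The 5 of 11 can thus not be tied to the rise. A match is a sequence description and does not show binding.

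Genes with regulatory roles were mixed, with 6 of 13 tested higher and 3 lower (median 0.62). Il4i1 (chr7:44816387-44840809, plus strand), a secreted amino acid oxidase that restrains T cells, had 105, 642, 615 and 478 CPM against 0, 11.9, 36.8 and 20.1 CPM (4.98 ± 0.28 SE, adjusted p = 7.66e-07). It was higher in every library, and its log2 fold change was 3.98 without sub-group 1. The nuclear receptor Nr4a3, described in migrating dendritic cells, had 533, 251, 762 and 329 CPM against 64.3, 90.6, 173 and 68.8 CPM (2.32 ± 0.19 SE, adjusted p = 7.51e-06). Socs2 had 62.7, 82.2, 148 and 127 CPM against 2.47, 12.6, 9.44 and 7.37 CPM (3.88 ± 0.26 SE, adjusted p = 2.77e-06). The aryl hydrocarbon receptor gene Ahr rose by 0.73 (adjusted p = 0.00905). Arginase 1 (Arg1), an enzyme of repair macrophages, fell by 3.14 (adjusted p = 3.80e-05), and Socs3 was not called (−0.19, adjusted p = 0.534).

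A list of further genes described in migratory dendritic cells had 22 of 27 tested higher and none lower (median 1.76); without sub-group 1 it had 13 higher and 1 lower of 24. Apol7c, an apolipoprotein L gene, had 115, 87.1, 9.88 and 32.1 CPM against 0, 0, 0.305 and 1.12 CPM (adjusted p = 4.81e-06), and all its 11 UMIs of un-wounded library 2 were in 1 cell. The serpin Serpinb6b had 136, 134, 219 and 117 CPM against 7.43, 9.18, 10.7 and 4.24 CPM, and Fabp5 had 585, 1852, 2308 and 2790 CPM against 198, 210, 414 and 915 CPM. Fabp5 rose by 2.40 ± 0.25 SE (adjusted p = 4.74e-05), and without sub-group 1 it was at 0.36. The stress gene Gadd45b rose by 1.18 ± 0.14 SE (adjusted p = 1.45e-04) and the vesicle gene Syngr2 had 732, 1103, 828 and 946 CPM against 346, 458, 457 and 367 CPM (adjusted p = 3.47e-05). Cdkn1a was not called (0.40, adjusted p = 0.115). The 12 largest rises over all genes, led by Apol7c, Ccl22 and Il4i1, also held Mreg (4.00), Serpinb9 (3.65), Stat4 (3.13), AA467197 (2.98) and Tmem39a (2.88).

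MHC class II presentation showed a split between genes. The rule used H2-Aa, H2-Ab1 and Cd74, which are left out; of 13 others tested, 5 rose and 3 fell (median −0.12). H2-DMb2, a chain of the peptide-loading chaperone, had 261, 517, 351 and 424 CPM against 156, 247, 116 and 102 CPM (1.61 ± 0.21 SE, adjusted p = 3.24e-04). H2-Oa, a chain of the chaperone's modulator, rose by 1.54 and the class II transactivator gene Ciita by 0.92. H2-Eb1, a class II chain itself, rose by 0.52 (adjusted p = 0.0238). March1, the ubiquitin ligase that removes class II from the surface, fell by 1.48 (adjusted p = 0.00325), and the lysosomal proteases Ctsc and Lgmn fell by 0.97 and 0.83. Ctss, H2-DMa and Ifi30 were not called (−0.12, −0.21 and 0.51, adjusted p = 0.544, 0.497 and 0.0845).

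For MHC class I presentation, 3 of 18 tested genes rose and 1 fell (median 0.27). H2-Q6 and H2-Q7, non-classical class I genes that resemble each other closely, rose by 1.78 and 1.36, and the proteasome activator gene Psme2 by 1.05. The abundant B2m, H2-D1, H2-K1 and Psmb8 were not called, with log2 fold changes of 0.01, 0.31, 0.32 and 0.39 and adjusted p = 0.974, 0.0897, 0.172 and 0.169.

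Uptake and pattern recognition genes were lower: of 19 tested, 14 fell and 1 rose (median −0.90). Lyz2 had 2247, 900, 334 and 1107 CPM against 7060, 5229, 2510 and 6655 CPM, lower in all 4 libraries with no overlap (−2.30 ± 0.13 SE, adjusted p = 7.66e-07). The Fc receptor gene Fcgr3 fell by 2.40 and its signalling chain Fcer1g by 0.65. The mannose receptor gene Mrc1 had 146, 26.4, 25 and 38.5 CPM against 249, 76.5, 99.6 and 124 CPM (−1.45 ± 0.16 SE, adjusted p = 1.04e-04), and the lysosomal cathepsin gene Ctsb fell by 1.39. Clec10a, a lectin of type 2 dendritic cells, was the 1 listed gene that rose (0.91, adjusted p = 0.0190), and Cd209a was not called (0.33, adjusted p = 0.360). Many of these genes are also high in macrophages, whose marker sums are given above, and without sub-group 1 the counts were 13 lower and 1 higher.

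The type I interferon response was not higher. Of 16 tested genes, 5 fell and none rose (median −0.38); 8 fell without TMM scaling and 0 without the library block. Ifit3 fell by 1.41 (adjusted p = 6.68e-04), Irf7 by 0.81 (adjusted p = 0.00568) and Ifi27l2a by 0.65 (adjusted p = 0.00939). Isg15 had 20.9, 271, 675 and 436 CPM against 40.8, 345, 565 and 523 CPM and was not called (0.06, adjusted p = 0.879); Ifitm3 and Bst2 were not called either (−0.20, adjusted p = 0.407, and −0.38, adjusted p = 0.0726).

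Genes that respond to tissue dissociation were lower too, with 12 of 16 tested lower and none higher (median −0.77). Fos had 742, 861, 501 and 507 CPM against 3068, 2042, 1329 and 1152 CPM, without overlap (−1.29 ± 0.16 SE, adjusted p = 2.31e-04). Hspa1a fell by 1.29 (adjusted p = 0.00342) and Dusp1 by 0.41 (adjusted p = 0.0244), while the abundant Junb and Zfp36 were not called (0.08, adjusted p = 0.637, and −0.22, adjusted p = 0.214). Of 17 proliferation genes tested, 2 rose and 1 fell (median 0.13). Cenpa and Tubb5 rose by 0.95 and 0.43; Mki67, at 52.3, 20.5, 20 and 14.8 CPM against 18.6, 21.4, 13.1 and 9.38 CPM, was not called (0.71, adjusted p = 0.0540), nor were Hmgb2 and Stmn1 (0.33, adjusted p = 0.144, and −0.12, adjusted p = 0.657).

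**Figure D4:**
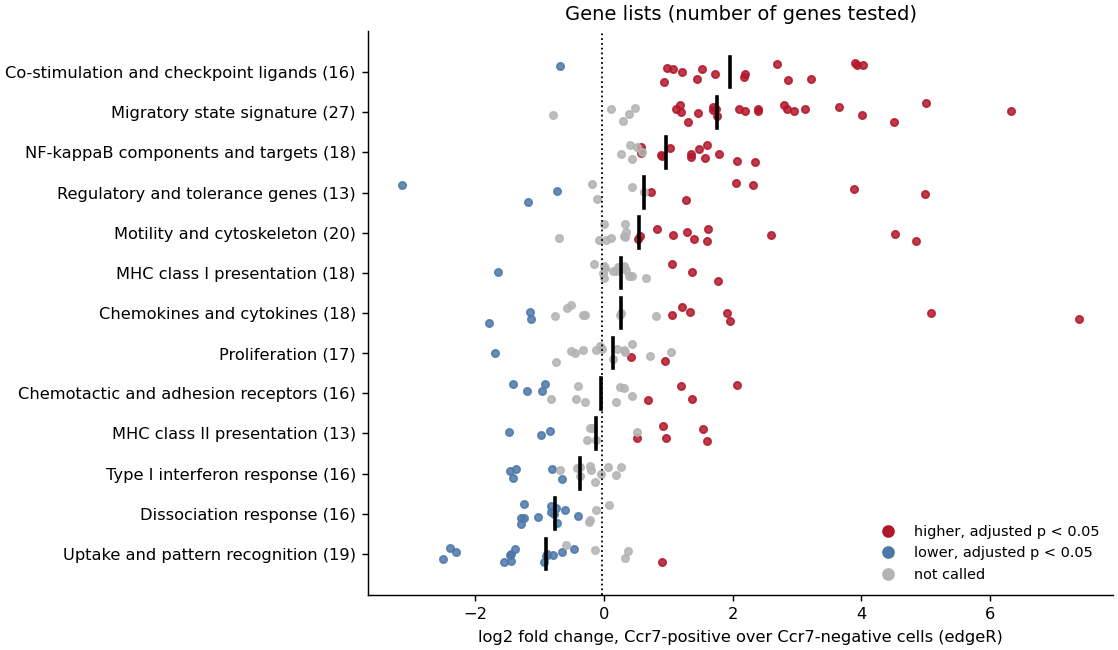
Log2 fold change of Ccr7-positive over Ccr7-negative cells for each tested gene of 13 lists; red points are higher and blue points lower at an adjusted p under 0.05, grey points not called, black bars list medians, and the dotted line is the median of all genes (−0.03). Medians run from −0.90 for uptake to 1.95 for co-stimulation.

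A narrower comparison used the Ccr7-negative cells with at least 2 UMIs of Cd209a and Mgl2 together and none of Cd207, 531 cells that resemble type 2 dermal dendritic cells by those lectins. Of 6208 genes tested, 16.7% passed; 602 (9.70%) were higher and 436 (7.02%) lower in Ccr7-positive cells. Macrophage and monocyte markers summed to 12181, 12432, 3721 and 10516 CPM in this class. In all Ccr7-negative cells they summed to 10304, 11748, 5780 and 17555 CPM. The narrower class was thus no lower in them in un-wounded library 2 and wounded library 1, and lower in wounded libraries 2 and 3. Their part in the differences was not tested. Without wounded library 2 there were 441 calls and without wounded library 3 585. Without sub-group 1 there were 648.

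Ccl22 was at 8.87, 16.8, 24.0 and 11.2 CPM in the Cd209a and Mgl2 class, below every Ccr7-positive value (5.73 ± 0.20 SE, adjusted p = 7.87e-08), and Fscn1 was 5.13 ± 0.35 SE higher. Apol7c had no UMI in the class and was at least 35.5-fold higher, with a floor of 3 counts over the class. Tbc1d4, which regulates vesicle traffic to the membrane, had 146, 462, 745 and 423 CPM against 10.6, 61.8, 57.8 and 18.6 CPM (3.77). Other large rises were those of Cacnb3 (5.24), Serpinb6b (5.15), Il4i1 (4.77), Mreg (4.49), Socs2 (4.23), Zmynd15 (3.83), Sema7a (3.70) and Serpinb9 (3.55). The largest falls were Ccl8 (−4.68), F13a1 (−4.10), Pf4 (−4.04), Ear2 (−3.37), Cd163 (−3.35) and Igf1 (−2.92), with Ccl12, Cbr2, Lyz1, Maf, C1qb and C1qc.

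By list, 12 of 15 co-stimulatory and checkpoint genes rose and 1 fell against the Cd209a and Mgl2 class, and 16 of 18 NF-kappaB genes rose. Relb was at 51.4, 49.1, 71.0 and 65.2 CPM in the class (2.16 ± 0.15 SE, adjusted p = 6.38e-06). Uptake genes fell in 10 of 15 cases and dissociation genes in 14 of 16, and no gene of either list rose. Ccl5, at 12.4, 135, 104 and 34.5 CPM in the class, was higher as in the broad comparison (3.50 ± 0.20 SE, adjusted p = 3.55e-06), while Ccl17 was not called (0.33, adjusted p = 0.179). Tnf, lower than in all Ccr7-negative cells, was higher than in this class (0.55, adjusted p = 0.0430), and Ccl4 was lower (−0.49, adjusted p = 0.0413). Without sub-group 1, Cd200 was at 1.09 (adjusted p = 0.0515), Ccl5 at 1.77, Relb at 1.57, and Actb and Lsp1 at −0.01 and −0.11.

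Langerhans cells, the dendritic cells of the epidermis, were taken as Ccr7-negative cells with at least 2 UMIs of Cd207 and 1 of Epcam. There were 187, and only wounded libraries 1 and 3 had 10 or more of them (111 and 14) beside 10 or more Ccr7-positive cells; un-wounded library 1 had 49 Langerhans cells but 1 Ccr7-positive cell. The comparison rests on 2 libraries. Of 6330 genes tested, 12.2% passed; 487 (7.69%) were higher and 286 (4.52%) lower in the Ccr7-positive cells. Without sub-group 1 there were 492 calls in all.

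Against Langerhans cells the Ccr7-positive cells of wounded libraries 1 and 3 had more Il4i1 (642 and 478 against 1.24 and 0 CPM, 9.28 ± 0.48 SE, adjusted p = 9.18e-04). Ccl17 stood at 257 and 247 against 0 and 5.89 CPM (7.94 ± 0.70 SE, adjusted p = 0.00339), while it was not called against the Cd209a and Mgl2 class; the difference between these comparisons was not tested. Fscn1 was 6.07 ± 0.48 SE higher (adjusted p = 0.00281) and Cd274 6.59 higher. Stat4, Ifitm6 and Apol7c had no UMI in the Langerhans class and were at least 18.6-fold, 21.5-fold and 15.2-fold higher. Of 17 co-stimulatory and checkpoint genes 10 rose and none fell, with a median of 3.43, or 3.04 when the genes without a UMI in Langerhans cells are set to their bound. Among 18 NF-kappaB genes 11 rose, among them Relb (2.32, adjusted p = 0.00535) and Traf1 (3.41, adjusted p = 0.00341).

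In this pairing 6 of 14 interferon genes and 4 of 17 uptake genes, Lyz2 among them, rose and none of either fell. Macrophage and monocyte markers summed to 1878 and 2723 CPM in the Ccr7-positive cells against 2034 and 966 CPM in Langerhans cells. Without sub-groups 5 and 6, 4 of 12 interferon genes and 2 of 16 uptake genes rose, and the uptake median moved from 1.01 to 0.53. Ifitm3 had 1593 and 2418 CPM in the Ccr7-positive cells against 385 and 165 CPM (3.11, adjusted p = 0.00996), and Clec10a 225 and 245 CPM against 1.24 and 58.9 CPM (4.24, adjusted p = 0.0244). Among the largest falls, Mfge8, a bridging protein of dead cell uptake, had 416 and 106 CPM against 5452 and 6384 CPM (−4.54 ± 0.49 SE, adjusted p = 0.00411), and Ptgs1 17.6 and 1.06 CPM against 559 and 271 CPM (−5.71). Tmem45b (−6.41), P2rx2 (−6.01), H2-M2 (−4.67) and the adhesion gene Cdh1 (−1.74, adjusted p = 0.0228), which holds Langerhans cells to keratinocytes, were lower as well.

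A wound effect within the Ccr7-positive cells could not be tested, since only 1 un-wounded library held more than 1 of them. As a description, 688 genes had at least 200 CPM in un-wounded library 2 or in the mean of the wounded libraries. Of these, 26 (3.78%) were at least 4-fold higher in every wounded library than in un-wounded library 2, with counting intervals apart. A further 3 (0.436%) were at least 4-fold lower in the same way. Of the 12 un-wounded cells, 8 were in sub-group 4, and 1 had 38 UMIs of B cell markers beside 7 Ccr7 UMIs. That barcode gave a B cell marker sum of 408 CPM in un-wounded library 2, against 0.353 to 1.96 CPM in wounded skin. The part of these cells in the differences below was not tested. In all, B cell markers were found in 9 of the 876 cells (1.03%).

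Il1r2 stood at 125 CPM in un-wounded library 2, from 4 of the 12 cells, and at 1743, 1261 and 1678 CPM in wounded skin, a ratio of means of 12.4. In Ccr7-negative cells it was at 152 CPM un-wounded and 1508, 291 and 461 CPM wounded, also higher in every wounded library. Il1r2, Pgf and Ifitm1, the last 2 given below, were leading genes of sub-group 2. That sub-group held none of the 12 un-wounded cells and 16.1, 26.4 and 37.0% of those in wounded skin. Its part in these ratios was not tested. Bcl2a1b stood at 125 CPM and 1064, 1494 and 1336 CPM (10.4), with the limit on copies named above. The growth factor gene Pgf stood at 52.3 CPM and 646, 280 and 680 CPM (10.2), the transcription factor Bhlhe40 at 83.6 CPM and 611, 818 and 564 CPM (7.95), the complement regulator properdin (Cfp) at 73.2 CPM and 517, 478 and 619 CPM (7.35), and the signalling regulator Rgs1 at 439 CPM and 2307, 2433 and 2033 CPM (5.14). In each of them except Pgf, the range over the 3 wounded libraries was smaller than the gap between the lowest of them and the un-wounded value. The un-wounded values rest on few UMIs: 5 in 2 cells for Pgf, 7 in 3 for Cfp and 8 in 5 for Bhlhe40. Bcl2a1b had 12 in 4 cells, 6 of them in 1 cell, and Rgs1 had 42 in 8 cells.

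For a few genes 1 cell decided the un-wounded value. Ifitm1 stood at 178 CPM and at 1426, 2742 and 3321 CPM, and 14 of its 17 un-wounded UMIs came from the barcode with B cell markers, without which it was at 33.5 CPM. Il4i1 stood at 105 CPM, with 8 of 10 UMIs in 1 cell, and at 642, 615 and 478 CPM. Clec4e, a receptor for dead cell products, had no UMI in the 12 cells and was at least 8.56-fold higher in wounded skin. In the Ccr7-negative cells wounded skin was higher as well: the ratio of means was 9.84 for Clec4e, 6.30 for Pgf, 4.66 for Bcl2a1b, 4.19 for Bhlhe40, 3.64 for Cfp and 2.77 for Rgs1, and Ifitm1 stood at 9.90 CPM un-wounded and 484, 1737 and 1182 CPM wounded. Whether these ratios differ between the classes was not tested.

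Few genes were lower in wounded skin. Fcrls stood at 261 CPM and 15.7, 6.31 and 12.4 CPM (ratio 0.0438), Arap2 at 240 CPM and 33.3, 35.9 and 20.5 CPM (0.124), and Bach1, a repressor of oxidative stress genes, at 219 CPM and 29.4, 47.5 and 33.2 CPM (0.167). For some genes called against Ccr7-negative cells the ratio of wounded to un-wounded level was near 1 in these libraries: 1.06 for Il1b, 1.14 for Cd83 and 0.936 for Cd274, the last from 24 UMIs in 7 of the 12 un-wounded cells. For Il1b, 1 un-wounded cell held 233 of 706 UMIs. Other called genes were further from 1: Fscn1 at 2.89 (16 un-wounded UMIs in 2 cells), Fabp5 at 3.96 (37 of 56 UMIs in 1 cell) and Gadd45b at 0.486. The ratio of 0.939 for Ccl22 was set by 1 cell, which held 75 of the 80 un-wounded UMIs.

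**Figure D5:**
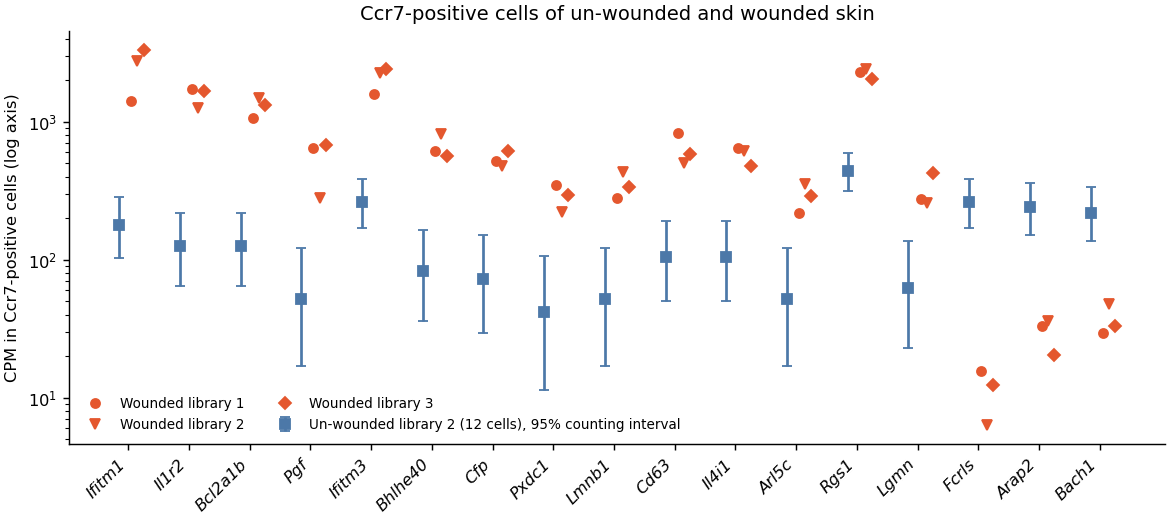
CPM in Ccr7-positive cells on a log axis for the genes at least 4-fold higher (left) or lower (right) in every wounded library, leaving out genes with 3 or fewer UMIs in un-wounded library 2 (blue squares with 95% counting intervals, 12 cells); red symbols are the 3 wounded libraries. By the mean of the wounded libraries, Il1r2, Bcl2a1b and Pgf are 12.4, 10.4 and 10.2-fold higher, and Fcrls, Arap2 and Bach1 are lower in each of them.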

How the data were processed

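The authors deposited whole UMI counts for each gene and barcode, and the submitters' processing notes name Cell Ranger 1.3.1 and the mm10 build; the annotation and the filter on barcodes are not given in the sources used here. The members, gene lists and comparisons were chosen with earlier results of these data known. UMIs were summed per library and class, in libraries with at least 10 cells of each class. The sums were tested in R 4.3.3 with edgeR 4.0.16: low genes were filtered with filterByExpr, libraries scaled by TMM, and a quasi-likelihood F-test run with the library as a block, which pairs both classes because they come from 1 capture. Printed CPM carry no TMM scaling. The printed SE is the absolute log2 fold change divided by the square root of the F statistic, an approximation. Named genes passed an adjusted p of 0.05, differed by at least 1 on the log2 scale in 1 direction in every library and reached 50 CPM on average in the higher class. The 12 largest rises and falls were taken, without mitochondrial, ribosomal, Gm-number and Rik genes. The 4 most abundant genes of each list were named too, and other list genes after their values were seen. Scrublet, run through scanpy 1.11.5, gave doublet scores; cells were kept except in an alternative that removed the highest scores at 0.8% per 1000 barcodes. Sub-groups came from Leiden clustering. Shares were compared by exact permutation tests over libraries. The 95% intervals and the floor of 3 counts cover counting error only.

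On simulated counts with 200 genes changed, 97.9% of 4-fold and 67.7% of 2-fold changes were recovered against Ccr7-negative cells (17 of 175 calls false, 8589 genes), 100% and 76.3% against the Cd209a and Mgl2 class (16 of 184, 5992 genes), and 82.2% and 16.5% against Langerhans cells (12 of 101, 5909 genes). Ensembl IDs were looked up in an annotation of GRCm38 for positions (98.7% of the table had one), and promoters are RefSeq's on GRCm38.p6. As alternatives, DESeq2 1.42.0 replaced edgeR, and the low-count filter, the TMM scaling or the block was dropped. Thinning, removal of doublets, other limits of the rule and leaving out each library were run as well; leaving out sub-groups was added after the data were seen. Results of some genes are not shown.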

Additional observations from a re-analysis of the deposited data

How the results depend on the processing

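Both shares of Ccr7-positive cells kept their direction under every alternative run; the difference ranged from 5.33 to 7.26 percentage points of kept barcodes and from 21.5 to 32.1 of MHC class II-high cells, and from 4.11 to 8.3 and from 21.3 to 32.2 with 1 library left out. No paired analysis was possible because, for wounding, the replicate numbers of un-wounded and wounded libraries mark no shared source and the shares come from a permutation test. Counts of called genes moved more. Without the replicate block (library) there were 278 calls against Ccr7-negative cells (202 higher, 76 lower), 301 against the Cd209a and Mgl2 class (202 higher, 99 lower) and 443 against Langerhans cells (267 higher, 176 lower). In that fit against Ccr7-negative cells, the lists held fewer calls: 11 co-stimulatory, 5 NF-kappaB and 5 motility genes higher, and 4 uptake, 1 dissociation and 0 interferon genes lower. Without sub-group 1, calls numbered 889 (474 higher), 648 (238 lower) and 492 (312 higher, 180 lower). Lower calls against Ccr7-negative cells were 952 without a filter on low counts, 1187 without TMM scaling and 912 without sub-groups 5 and 6; against the Cd209a and Mgl2 class they were 290 with DESeq2 and 663 without TMM scaling. Thinning gave 389 higher calls against that class and 443 calls against Langerhans cells (283 higher, 160 lower), for which DESeq2 gave 330 (217 higher, 113 lower). With 1 library left out, calls ranged from 666 to 1515 against Ccr7-negative cells (360 to 918 higher, 269 to 700 lower) and from 441 to 1184 against the Cd209a and Mgl2 class (258 to 751 higher, 183 to 433 lower). Without sub-group 1, Fscn1 against Ccr7-negative cells turned to −0.29. Against the Cd209a and Mgl2 class Actb turned to −0.012 and Lsp1 to −0.11. The sub-group was picked for its high Ccr7, Fscn1 and Ccl22, so a lower Fscn1 without it was fixed in advance. The cause of the other changes was not tested. Not run were the wound effect and interaction within Ccr7-positive cells and, for Langerhans cells, leaving out a library and a minimum of 20 cells, since too few libraries remained. The 12 cells of un-wounded library 2 limit what depth can show there.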
